A study of Oryzias latipes with 6 samples.

Results

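Hearts of medaka with constitutively active XBP1(S) were compared with hearts of medaka with constitutively active ATF6(N), both with intact AXER, at 5 days post-fertilization. The members were the 12 library columns of these genotypes out of 36 in the series, 6 for AXER+/+, XBP1(S/+) and 6 for AXER+/+, ATF6(N/+), chosen by the genotype label of the table each column belongs to. XBP1(S/+) medaka carry 1 XBP1 allele from which the intron removed by IRE1 has been deleted, so that the spliced form is made without a signal. ATF6(N/+) medaka carry 1 ATF6α allele that lacks the luminal and most of the transmembrane part, so that the nuclear fragment is made directly. In each genotype the other allele of the edited gene is intact, the edited gene keeps its own locus and promoter in every cell, and the partner factor is wild type. AXER, the ATP/ADP exchanger of the ER membrane, was wild type in all 12 libraries. The labels name HdrR as the medaka line of every genotype, whereas the methods of the study name cab as the wild-type strain. The remaining libraries served only as points of reference, 6 each for AXER-/-, XBP1(S/+), for AXER-/-, ATF6(N/+), for AXER-/- and for AXER+/+ with neither active factor.

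XBP1 and ATF6α are basic leucine zipper transcription factors of the unfolded protein response, the set of pathways that adjusts the cell to unfolded protein in the endoplasmic reticulum (ER). In vertebrates, ATF6 is cut by Golgi proteases under ER stress and its nuclear fragment chiefly raises genes of ER chaperones. XBP1 is translated in its active form only after IRE1 splices its mRNA, and it raises a wider set that includes genes for ER-associated degradation, protein transport and secretory capacity. The contrast asks which transcripts of the heart differ when one or the other active factor is present from fertilization.

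RNA of whole hearts was sequenced by Lasy-Seq, a method that tags every RNA sample at reverse transcription before all samples are pooled. The XBP1(S) libraries held 2396096 to 11027825 estimated reads (median 5579627.5) and the ATF6(N) libraries 3532413 to 10257903 (median 4966114.5), which did not differ in a two-sided exact permutation test over the libraries (p = 0.721, 0.725 after adjustment over 4 technical values). The 10 most abundant transcripts took 21.3% ± 2.70 of the reads with XBP1(S) and 18.7% ± 1.66 with ATF6(N) (SD, n = 6 each, exact permutation p = 0.0758, adjusted 0.152), and the TMM factors averaged 0.928 ± 0.164 with XBP1(S) and 1.10 ± 0.102 with ATF6(N) (SD, n = 6 each, exact permutation p = 0.0498, adjusted 0.152). The libraries come with no statement that they derive from separate animals, so that p-values measure the spread between libraries, which may be technical. Any pair of one genotype differed beyond sampling noise, with a chi-square per degree of freedom of at least 7.27 on counts scaled by total reads. This value cannot tell separate animals from technical repeats. In a whole heart, more cells of a type and more RNA per cell cannot be told apart. The paper states that RNA of erythrocytes was sequenced along with that of the hearts, since red cells lose their nuclei only in mammals. None of the 37495 transcript identifiers matched the gene names used here, so that the heart markers, the blood cell markers and the transcripts of XBP1, ATF6α and AXER were not checked, and no gene list of the unfolded protein response was counted.

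Some libraries stood apart. On the first 2 principal components of the 12 libraries, which held 17.6% and 16.0% of the variance, XBP1(S) replicate 2 lay far out on the first and XBP1(S) replicate 3 on the second. Levels are given in CPM, the count relative to the library size after TMM normalization. Transcripts above 16 CPM that were more than 8-fold above the median of the other 11 libraries numbered 60 in XBP1(S) replicate 1, 30 in XBP1(S) replicate 6, 15 in XBP1(S) replicate 3 and 48 in ATF6(N) replicate 2, and 5 or fewer in each of the other 8 libraries. Replicate 1 of XBP1(S) and replicate 2 of ATF6(N) had 16 of them in common. Counts are given below with and without these libraries.

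Among 18076 transcripts tested, 116 (0.642%) differed, 114 (0.631%) being higher with XBP1(S) than with ATF6(N) and 2 (0.0111%) lower, by edgeR's quasi-likelihood test (fold change over 1.5, p below 0.05 after Benjamini-Hochberg adjustment). The calls thus ran almost wholly one way, as did the 146 higher and 11 lower of the DESeq2 test, whereas an unadjusted p under 0.05 was reached by 948 transcripts that were higher and 638 that were lower. Over all transcripts tested the median log2 fold change was -0.01 and 49.4% lay above 0. The 114 raised transcripts had a median log2 fold change of 1.14 (quartiles 0.92 and 1.45), 74 of them exceeded 2-fold and 21 exceeded 3-fold. Without XBP1(S) replicates 1 and 6 and ATF6(N) replicate 2 the call was made for 73 transcripts, 71 of them among the 116, all higher with XBP1(S). Without XBP1(S) replicates 2 and 3 it was made for 91 transcripts, 90 higher and 1 lower. With every library thinned to the depth of the shallowest it was made for 76, 73 higher and 3 lower.

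**Figure D1:**
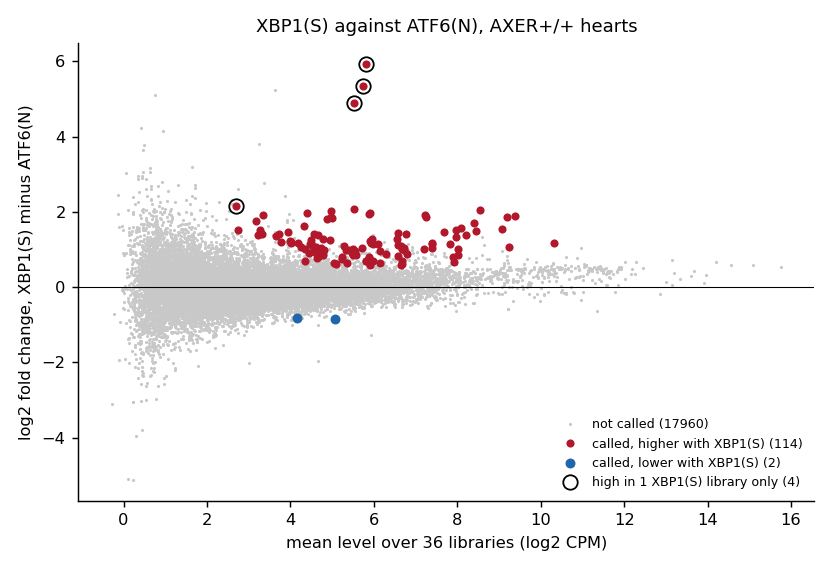
Log2 fold change, XBP1(S) minus ATF6(N), in AXER+/+ hearts (vertical axis) against the mean level over all 36 libraries (horizontal axis, log2 CPM), 1 point per transcript. The 114 raised transcripts (red) lie well above 0 over a wide range of levels, the 2 fallen ones (blue) lie below 0, and the 4 ringed transcripts were high in 1 XBP1(S) library only.

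Raised transcripts were of middle to high abundance. Their mean level ranged from 9.85 to 1595 CPM with XBP1(S) (median 62.3 CPM) and from 3.44 to 708 CPM with ATF6(N) (median 28.0 CPM), against medians of 7.75 and 8.03 CPM over all transcripts tested in the same genotypes. With XBP1(S), 39 of the 114 had a mean over 100 CPM and 8 a mean over 500 CPM. The share called higher was 0 of 5298 transcripts below 2 on the log2 CPM scale, 1.46% of 4177 between 4 and 6, and 4.45% of 247 between 8 and 10. A call is harder to reach at low counts, and the part of this in the shares was not tested. The levels with XBP1(S) were also part of the choice of the 114. Level and fold change also moved together over transcripts that were not called. The 160 transcripts at 10 log2 CPM or more had a median log2 fold change of 0.42, with 142 above 0 but only 1 called, while the median between 6 and 8 log2 CPM was 0.11. Normalization by cyclic loess, chosen after seeing the data, brought that 0.42 to 0.03, and the raised transcripts then had a median of 1.10 with 102 of the 114 still called by limma-voom. Of the 116 transcripts called by edgeR in either direction, limma-voom called 105 without cyclic loess and 103 with it.

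The libraries of the raised transcripts were mostly separate. All 6 XBP1(S) libraries lay above all 6 ATF6(N) libraries for 84 of the 114, and over all transcripts tested this held for 116 (0.642%), while all 6 lay below for 47 (0.26%). The remaining 30 raised transcripts overlapped between the genotypes. The separate transcripts had log2 fold changes of 0.59 to 2.08 (median 1.16). Since the test that chose them used the same libraries, their separation is a description.

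The largest rise among separate transcripts was that of ENSORLT00000029339.1. It was at 85.1, 68.9, 93.6, 72.6, 59.6 and 70.5 CPM in the XBP1(S) libraries, against 16.1, 24.3, 16.0, 15.4, 16.8 and 17.5 CPM in the ATF6(N) libraries. Every XBP1(S) library thus lay far above every ATF6(N) library, and the log2 fold change with its standard error was 2.08 ± 0.14 (adjusted p = 7.62e-14 from edgeR). In hearts with neither factor it was at 21.8 ± 4.001 CPM (SD, n = 6), near the level with ATF6(N).

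ENSORLT00000019560.2 was the next largest and far more abundant. It was at 848, 649, 818, 509, 575 and 622 CPM in the XBP1(S) libraries, against 97.1, 271, 166, 155, 149 and 142 CPM in the ATF6(N) libraries, with a log2 fold change and standard error of 2.04 ± 0.18 (adjusted p = 2.59e-10 from edgeR). ATF6(N) replicate 2 was the highest of its group and still lay below every XBP1(S) library. Hearts with neither factor had 160 ± 43.8 CPM (SD, n = 6).

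The most abundant raised transcript averaged 1595 ± 432 CPM with XBP1(S) and 708 ± 62.2 CPM with ATF6(N) (SD, n = 6 each), and XBP1(S) minus ATF6(N) was 1.17 on the log2 scale (adjusted p = 1.34e-06 from edgeR). It ranged from 1142 to 2291 CPM over the XBP1(S) libraries and from 637 to 800 CPM over the ATF6(N) libraries, with no overlap. Another abundant one averaged 1125 ± 337 CPM with XBP1(S) and 306 ± 22.4 CPM with ATF6(N) (SD, n = 6 each), and XBP1(S) minus ATF6(N) was 1.88 on the log2 scale (adjusted p = 2.20e-11 from edgeR). In both, the spread was wide among XBP1(S) libraries and narrow among ATF6(N) libraries.

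The transcripts that fell were few. ENSORLT00000013893.2 was at 23.5, 23.9, 19.0, 25.6, 23.1 and 22.7 CPM in the XBP1(S) libraries, against 52.3, 38.7, 46.6, 32.1, 38.7 and 40.6 CPM in the ATF6(N) libraries, so that the groups did not overlap. Its log2 fold change and standard error were -0.85 ± 0.18 (adjusted p = 0.00452 from edgeR), and hearts with neither factor lay between, at 31.3 ± 6.90 CPM (SD, n = 6). Its choice for XBP1(S) below ATF6(N) in part fixes that order. With XBP1(S) replicates 1 and 6 and ATF6(N) replicate 2 left out, the adjusted p was 0.0535. ENSORLT00000012170.2, named after its values were seen as the only other transcript that fell, was at 12.2, 6.19, 9.38, 14.8, 10.7 and 13.2 CPM with XBP1(S), against 20.3, 14.5, 20.0, 18.6, 29.0 and 16.4 CPM with ATF6(N). Its groups overlapped, its log2 fold change and standard error were -0.81 ± 0.20 (adjusted p = 0.0441 from edgeR), and it lost the call in 16 of 23 other settings.

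**Figure D2:**
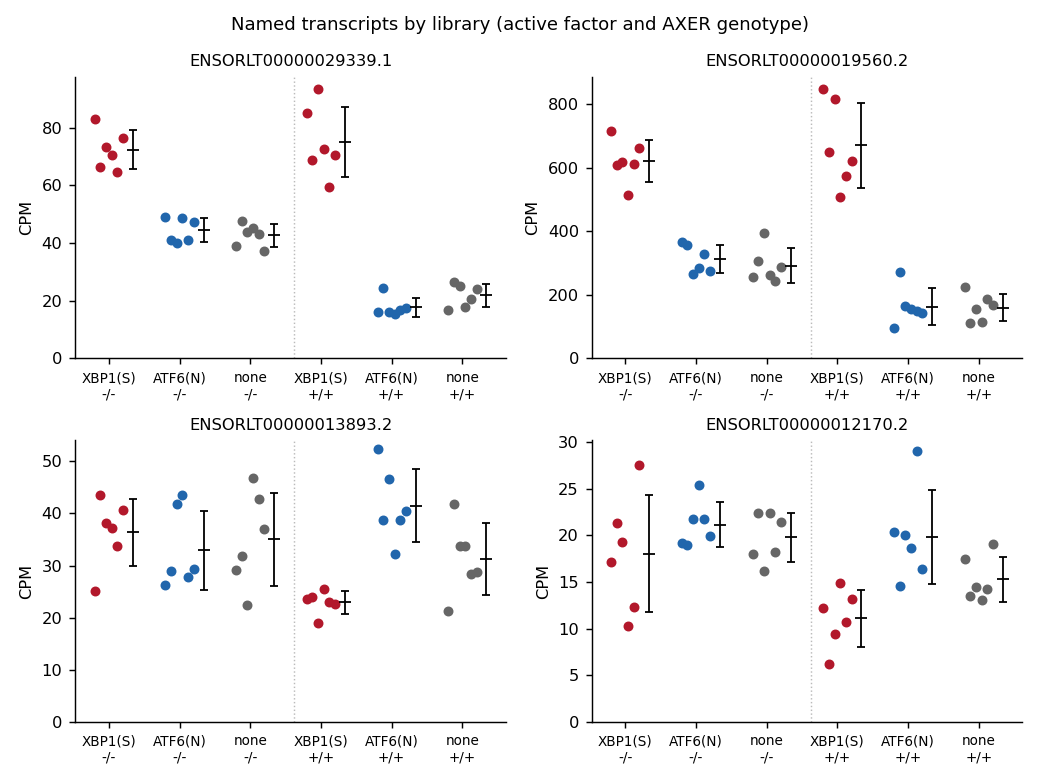
Level (CPM, linear axis from 0) of the 4 named transcripts in each of 6 libraries per genotype, with the AXER-/- genotypes left of the dotted line and the AXER+/+ genotypes right of it, and the mean ± SD beside each group. In AXER+/+ hearts the XBP1(S) points lie above the ATF6(N) points in both upper panels (60 to 94 against 15 to 24 CPM in the first) and below them in the lower left panel, and they overlap in the lower right panel.

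Both factors were also set against AXER+/+ hearts with neither factor, which the comparisons share. Since the 114 were chosen on the same XBP1(S) and ATF6(N) libraries, their values here are a description that the choice in part fixes, with XBP1(S) placed high and ATF6(N) low. XBP1(S) hearts differed from hearts with neither factor in 108 transcripts (0.597%), with 103 (0.57%) higher and 5 (0.0277%) lower, whereas ATF6(N) hearts had 2 (0.0111%) higher and 0 lower by edgeR. At an unadjusted p under 0.05 edgeR gave 596 transcripts in either direction between ATF6(N) and neither factor. That is fewer than a share of 0.05 of the 18076 tested, which would be reached with no difference at all. A count this low does not show that ATF6(N) was without effect. From RNA-seq of hearts of the same age, the paper reports raised levels of ER chaperone genes in ATF6(N/+) over wild-type medaka. The RNA-seq data of the paper are those of this series, so that this need not be separate evidence. The paper also reports a brighter fluorescent reporter of the promoter of BiP, an ER chaperone, over the whole body of ATF6(N/+) medaka. Without gene names the ER chaperone genes could not be checked here. Between ATF6(N) and neither factor, DESeq2 and limma-voom each called 2 higher and 0 lower. The count for ATF6(N) was 1 without ATF6(N) replicate 5 or without replicate 5 or 6 of the hearts with neither factor. Of the 114 raised transcripts, 89 were also called above hearts with neither factor in XBP1(S) hearts and none was called in ATF6(N) hearts. Their log2 fold change with XBP1(S) over neither factor had a median of 1.05 (range 0.26 to 5.41), and that with ATF6(N) over neither factor a median of -0.11 (range -0.87 to 0.47). The 4 raised transcripts that were high in 1 XBP1(S) library only are among the 89. With XBP1(S) over neither factor they had log2 fold changes of 5.41, 5.32, 4.75 and 2.23. The log2 fold change with ATF6(N) over neither factor was below 0 for 74 of the 114 and above 0 for 40 (35.1%), against 51.0% above 0 over all transcripts tested.

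**Figure D3:**
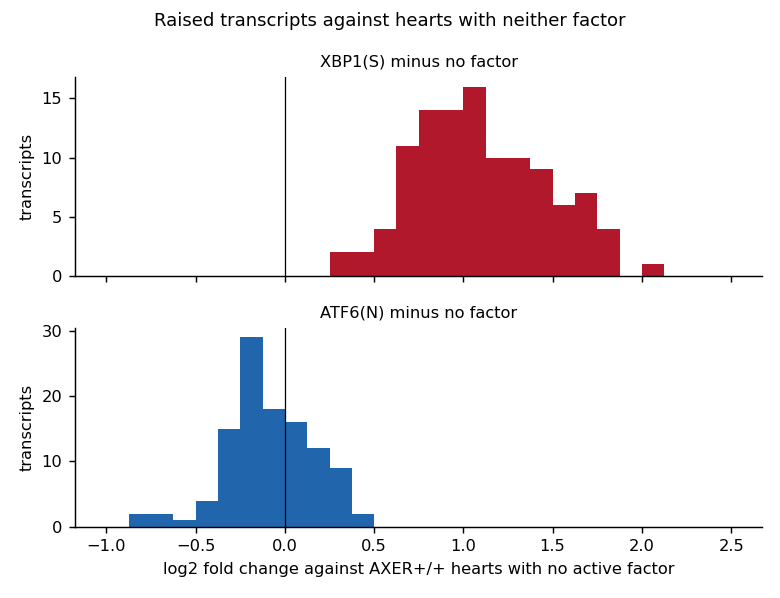
Histograms of the log2 fold change of 110 raised transcripts over AXER+/+ hearts with neither active factor, for XBP1(S) hearts (upper) and ATF6(N) hearts (lower), with the number of transcripts per bin of 0.125 on the vertical axis. All values lie above 0 with XBP1(S), and they lie on both sides of 0, between -0.87 and 0.47, with ATF6(N). The 4 transcripts high in 1 library are left out.

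Of the 114, 25 were not called against neither factor, and 14 of the 103 transcripts called higher with XBP1(S) than with neither factor were not called against ATF6(N). The 25 had a median log2 fold change of 0.74 with XBP1(S) over neither factor. For the 14, XBP1(S) minus ATF6(N) ran from 0.30 to 3.80 on the log2 scale (median 0.58). Both choices used the same XBP1(S) libraries, which in part fixes these values. None of the 5 transcripts called lower with XBP1(S) than with neither factor was called lower than with ATF6(N), where their log2 fold changes ran from -0.69 to -0.34.

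The 2 transcripts called higher with ATF6(N) than with neither factor were not called between the factors. The first averaged 107.4 ± 16.1 CPM with XBP1(S), 150 ± 20.3 CPM with ATF6(N) and 85.9 ± 11.6 CPM with neither factor (SD, n = 6 each), and XBP1(S) minus ATF6(N) was -0.48 on the log2 scale (adjusted p = 0.150 from edgeR). The second averaged 91.6 ± 13.3 CPM with XBP1(S), 129 ± 14.9 CPM with ATF6(N) and 68.6 ± 11.7 CPM with neither factor (SD, n = 6 each), and XBP1(S) minus ATF6(N) was -0.50 on the log2 scale (adjusted p = 0.115 from edgeR). In both, the mean with XBP1(S) lay between that with ATF6(N) and that with neither factor. Their choice for ATF6(N) above neither factor in part fixes this order. In AXER-/- hearts with neither factor the 2 averaged 368 ± 83.9 and 314 ± 77.1 CPM (SD, n = 6 each). Both had estimates that were not whole, so that they need not be independent of each other.

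A group of 4 raised transcripts rested on XBP1(S) replicate 6 alone. Their levels in that library were 1736, 1588, 1364 and 67.6 CPM, whereas the other XBP1(S) libraries did not exceed 9.85, 35.9, 16.2 and 9.28 CPM and the ATF6(N) libraries did not exceed 9.29, 13.0, 19.8 and 4.84 CPM for the same transcripts in that order. Their log2 fold changes of 5.94, 5.34, 4.88 and 2.15 were the highest among all called, with adjusted p between 0.0159 and 0.0379 from edgeR. Without that library none of the 4 was called, which also held without ATF6(N) replicate 3 or 6. Without ATF6(N) replicate 1, 2 or 5 only 1 of the 4 was called, and without replicate 4 only 2. The DESeq2 test gave 3 of them no adjusted p. The other 110 raised transcripts had a highest log2 fold change of 2.08 and a median of 1.12.

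The level of the raised transcripts varied across the XBP1(S) libraries, and whether other transcripts varied likewise was not examined. The mean level of the 84 separate transcripts was 6.56, 6.34, 6.67, 6.20, 6.12 and 6.36 log2 CPM in XBP1(S) replicates 1 to 6 (mean 6.37 ± 0.21), against 4.98 to 5.29 log2 CPM in the ATF6(N) libraries (mean 5.16 ± 0.11) and 5.22 ± 0.12 log2 CPM with neither factor (SD, n = 6 each). XBP1(S) replicate 3 was the highest of its group for 48 of the 84 and replicate 1 for 23, while replicate 5 was the lowest for 32 and replicate 4 for 23. The summed level of all 114 was 17506 ± 3895 CPM with XBP1(S), 6822 ± 501 CPM with ATF6(N) and 7336 ± 891 CPM with neither factor (SD, n = 6 each). Over the 84 separate transcripts it was 14908 ± 3239, 5808 ± 436 and 6272 ± 806 CPM in the same order (SD, n = 6 each). The sum over all 114 includes the 4 transcripts that rested on XBP1(S) replicate 6. In that library the sums were 20545 CPM over all 114 and 14079 CPM over the 84. Replicates 1 and 3, with 11027825 and 6180833 estimated reads, are among the libraries that stood apart. Their TMM factors were 0.775 and 0.692, against 0.949 to 1.13 in the other XBP1(S) libraries, and a lower factor gives every transcript of a library a higher CPM. The part of these traits in the level was not tested.

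The members are not all independent. After the genotype means were removed, 14 of the 114 formed 11 pairs with a correlation above 0.9 over the 36 libraries, in 4 groups of which the largest held 7. Of the 114, 86 (75.4%) had an estimate that was not whole in at least 1 library, against 6888 of 18076 tested (38.1%), which marks reads that were divided between transcripts with shared sequence. These shares were not matched for level, the 114 were more abundant, and the part of level in them was not tested. When only transcripts with whole estimates in every library were tested, 20 were called, all higher with XBP1(S), out of 28 of the 114 that remained. Of the 14 in pairs with a correlation above 0.9, 9 had an estimate that was not whole. How common such pairs are among the other transcripts tested was not examined. Transcripts of 1 gene or of close copies may appear more than once among the 114.

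The same contrast in AXER-/- hearts rests on other libraries. These held 1850805 to 4728592 estimated reads with XBP1(S) (median 2477696) and 2692071 to 11455186 with ATF6(N) (median 5757233.5), so that the XBP1(S) libraries were shallower than those of AXER+/+ hearts by their medians, and the part of depth in the counts of calls was not tested. Over all transcripts tested the quartiles of the log2 fold change were -0.26 and 0.28 in AXER-/- hearts, against -0.27 and 0.27 in AXER+/+ hearts. In AXER-/- hearts, 30 transcripts (0.166%) were called, 22 (0.122%) higher with XBP1(S) than with ATF6(N) and 8 (0.0443%) lower. With DESeq2's size factors in the same test the split was 27 higher and 5 lower, and the DESeq2 test called 75. Without XBP1(S) replicate 5 of AXER-/- hearts 13 were called, and without ATF6(N) replicate 1, 4, 5 or 6 the counts were 19, 19, 17 and 18. Of the 114 transcripts raised in AXER+/+ hearts, 20 were also called higher in AXER-/- hearts (17.5% of the 114 and 90.9% of the 22) and none was called lower. Their log2 fold change in AXER-/- hearts had a median of 0.46 (range -0.35 to 1.47) and lay above 0 for 103 of the 114 (90.4%), against a median of -0.00 and 49.7% above 0 over all transcripts tested. The AXER-/- libraries did not overlap for 31 of the 114, against 64 of 18076 (0.354%) over all. Of the 94 not called there, 83 still lay above 0.

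Neither transcript that fell in AXER+/+ hearts was called in AXER-/- hearts. ENSORLT00000013893.2 averaged 36.4 ± 6.44 CPM with XBP1(S) and 32.9 ± 7.61 CPM with ATF6(N) in AXER-/- hearts (SD, n = 6 each), which differed by 0.14 on the log2 scale and was not called, and the difference from AXER+/+ hearts was not called either (adjusted p = 0.178 from edgeR). ENSORLT00000012170.2 averaged 18.0 ± 6.27 CPM with XBP1(S) and 21.2 ± 2.41 CPM with ATF6(N) in AXER-/- hearts (SD, n = 6 each), with overlapping libraries. Of the 8 transcripts called lower in AXER-/- hearts none was called in AXER+/+ hearts, where 5 of the 8 lay below 0 and the median log2 fold change was -0.33.

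The test of the difference itself, the contrast in AXER-/- hearts less that in AXER+/+ hearts, called 10 transcripts (0.0553%), 9 lower (0.0498%) and 1 higher (0.00553%). All 9 were among the 114. The estimate of the difference was below 0 for 111 of the 114 and above 0 for 3 (2.63%), against 49.9% above 0 over all transcripts tested. The choice of the 114 on the AXER+/+ contrast in part fixes this. Fold change also moved with level in opposite directions in the AXER genotypes. Over all transcripts tested at 8 to 10 log2 CPM the median log2 fold change was 0.27 in AXER+/+ and -0.15 in AXER-/- hearts. At 10 log2 CPM or more it was 0.42 and -0.27, and between 4 and 6 it was 0.01 and -0.01, in the same order. The part of this in the differences was not tested. The DESeq2 test called 208, and with edgeR the number of calls ran from 5 to 16 when single libraries were left out. It was 5 without replicate 2, 5 or 6 of XBP1(S) or replicate 1, 2 or 5 of ATF6(N) in AXER-/- hearts, and 5 without replicate 1 of XBP1(S) or replicate 1 or 4 of ATF6(N) in AXER+/+ hearts. It was 6 without XBP1(S) replicate 4 in AXER-/- hearts or without XBP1(S) replicate 6 or ATF6(N) replicate 3, 5 or 6 in AXER+/+ hearts, and 16 without XBP1(S) replicate 5 in AXER+/+ hearts.

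**Figure D4:**
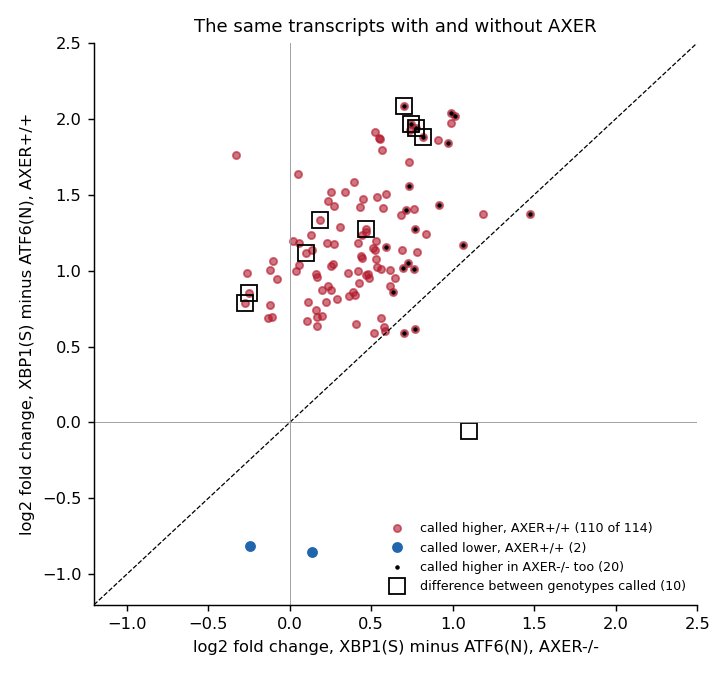
Log2 fold change, XBP1(S) minus ATF6(N), in AXER+/+ hearts (vertical axis) against the same in AXER-/- hearts (horizontal axis), with the line of equality dashed. Of the 110 raised transcripts drawn (the 4 high in 1 library are left out) most lie above the line, 20 are also called in AXER-/- hearts (black centres), and the 10 squares mark transcripts whose contrast differs between the genotypes.

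ENSORLT00000029339.1 had the largest such difference. In AXER-/- hearts it averaged 72.4 ± 6.84 CPM with XBP1(S), 44.5 ± 4.27 CPM with ATF6(N) and 42.7 ± 3.91 CPM with neither factor (SD, n = 6 each), and XBP1(S) minus ATF6(N) was 0.70 on the log2 scale (adjusted p = 0.00845 from edgeR). Set against its log2 fold change of 2.08 in AXER+/+ hearts this was a difference of -1.38 with a standard error of 0.19 (adjusted p = 0.000121 from edgeR). The levels with XBP1(S) were close in both genotypes, and the level with ATF6(N) was 44.5 CPM in AXER-/- hearts, against 17.7 CPM in AXER+/+ hearts. Another pair of transcripts among the 9 had the same pattern, with log2 fold changes of 0.74 and 0.77 in AXER-/- hearts, against 1.96 and 1.94 in AXER+/+ hearts. Among the called transcripts they were the most like ENSORLT00000029339.1 over the libraries after the genotype means were removed (correlations 0.68 and 0.63). Like it, they had estimates that were not whole, so that they need not be independent repeats of the pattern.

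A different pattern was seen in a further pair among the 9. The first of them averaged 415 ± 81.2 CPM with XBP1(S), 493 ± 44.9 CPM with ATF6(N) and 362 ± 40.4 CPM with neither factor in AXER-/- hearts, against 137 ± 18.3, 75.9 ± 6.72 and 68.1 ± 9.09 CPM in AXER+/+ hearts in the same order (SD, n = 6 each). Its partner had like values, and their differences were -1.10 and -1.07 on the log2 scale (adjusted p = 0.000746 and 0.00115 from edgeR). The pair correlated at 0.914 over the libraries after the genotype means were removed, so that the partner need not be an independent repeat. In these, AXER-/- hearts of every factor genotype stood above all AXER+/+ hearts.

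The 1 transcript with a larger contrast in AXER-/- hearts was not called between the factors in AXER+/+ hearts. It was at 115, 123, 91.4, 128, 131.2 and 124 CPM in the XBP1(S) libraries, against 45.7, 33.4, 56.6, 70.8, 59.7 and 67.0 CPM in the ATF6(N) libraries, in AXER-/- hearts. In AXER+/+ hearts it averaged 151 ± 41.9 CPM with XBP1(S), 156 ± 25.5 CPM with ATF6(N) and 144 ± 22.6 CPM with neither factor (SD, n = 6 each). With neither factor in AXER-/- hearts it averaged 64.9 ± 9.27 CPM (SD, n = 6). XBP1(S) minus ATF6(N) was 1.10 on the log2 scale in AXER-/- hearts, against -0.05 in AXER+/+ hearts, a difference of 1.15 (adjusted p = 0.0393 from edgeR).

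Over the 84 separate transcripts, the level with XBP1(S) was about the same in both AXER genotypes and the levels without it were not. Their mean level was 6.42 ± 0.12 log2 CPM with XBP1(S) in AXER-/- hearts, against 6.37 ± 0.21 in AXER+/+ hearts (SD, n = 6 each). With ATF6(N) it was 5.95 ± 0.13 log2 CPM in AXER-/- hearts, against 5.16 ± 0.11 in AXER+/+ hearts (SD, n = 6 each), and with neither factor it was 5.91 ± 0.16 in AXER-/- hearts, against 5.22 ± 0.12 in AXER+/+ hearts (SD, n = 6 each). Among all 114, the mean was higher in AXER-/- than in AXER+/+ hearts for 62 (54.4%) with XBP1(S), for 111 (97.4%) with ATF6(N) and for 108 (94.7%) with neither factor, against 48.9%, 47.3% and 51.3% of all transcripts tested in the same order. The median ratio of the means, AXER-/- over AXER+/+, was 1.03 with XBP1(S), 1.62 with ATF6(N) and 1.48 with neither factor, against 0.991, 0.984 and 1.01 over all transcripts tested. The choice of the 114 for high levels with XBP1(S) and low levels with ATF6(N) in AXER+/+ libraries in part fixes the values of these genotypes, whereas the levels with neither factor were not part of the contrast that chose them.

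**Figure D5:**
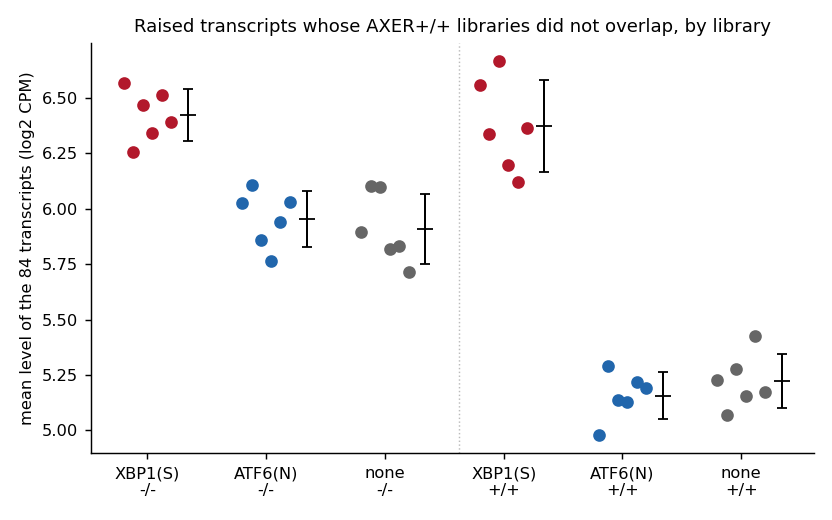
Mean level of the 84 separate raised transcripts (log2 CPM) in each of 6 libraries per genotype, with the AXER-/- genotypes left of the dotted line and the AXER+/+ genotypes right of it, and the mean ± SD beside each group. The XBP1(S) libraries lie between 6.12 and 6.67 in both AXER genotypes, and the libraries without XBP1(S) lie between 5.72 and 6.11 in AXER-/- hearts, against 4.98 to 5.43 in AXER+/+ hearts. The transcripts were chosen for their separation of XBP1(S) and ATF6(N) in AXER+/+ hearts.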

How the data were processed

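Whole hearts of medaka (Oryzias latipes) at 5 days post-fertilization were sequenced by Lasy-Seq, and 6 tables, 1 per genotype, hold 6 library columns each. The authors trimmed read 1 with fastp 0.21.0, mapped it with BWA 0.7.17-r1188 and deposited estimated counts per transcript made with Salmon. Their notes name the mouse cDNA set GRCm38 as the reference, whereas the identifiers are those of medaka transcripts. Of all deposited values 1.88% were not whole (tolerance 1e-06), and the estimated counts were rounded. They were tested with edgeR 4.0.16 in R 4.3.3 (filterByExpr by genotype, TMM, a robust quasi-likelihood fit of 1 mean per genotype over 36 libraries). A transcript was called at a fold change over 1.5 and a p below 0.05 after Benjamini-Hochberg adjustment. CPM use the TMM-normalized library size, log2 CPM a prior count of 2, and standard errors come from the fold change and F statistic. Libraries are named replicate 1 to 6 by column position, which pairs nothing.

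DESeq2 1.42.0, limma 3.58.1 and other alternatives were run. Technical values were compared by two-sided exact permutation tests. Named transcripts are the largest called changes with a mean of at least 1 CPM in a genotype and no overlap of the libraries, at most 2 in each direction. Identifiers matched no entry of the RefSeq gene table (assembly ASM223467v1), so that gene lists, cell type markers and sequences were not used here. The members, lists and tests were chosen with earlier results of these data known.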

Additional observations from a re-analysis of the deposited data

Results flagged for a closer look

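In 5 of 46 groups of 6 values examined, 1 library lay far from the other 5. Of these, 4 were examined because XBP1(S) replicate 6 stood far above the other libraries, so that their flags were fixed in advance. The rate of chance flags, about 1 in 20, does not apply to them. For ENSORLT00000029339.1 in ATF6(N) hearts with intact AXER, replicate 2 had 24.3 CPM and the other libraries 15.4 to 17.5 CPM. In XBP1(S) hearts with intact AXER, replicate 6 had 1736, 1588, 1364 and 67.6 CPM for the 4 transcripts named above as resting on it, while the other libraries reached at most 9.85, 35.9, 16.2 and 9.28 CPM in the same order.

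The difference between XBP1(S) and ATF6(N) hearts itself differed by AXER genotype for 10 transcripts in edgeR's interaction test (AXER-/- less AXER+/+, adjusted p under 0.05). The log2 values were -1.38 for ENSORLT00000029339.1, -1.22, -1.17, -1.15, -1.10, -1.07, -1.06, -1.02 and -0.81 for the other 8 that were lower, and 1.15 for the 1 that was higher.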

How the results depend on the processing

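The count of transcripts called between XBP1(S) and ATF6(N) in AXER+/+ hearts was 116 and ran from 86 to 157 over DESeq2, limma-voom, DESeq2's size factors, no filter, only the genotypes compared, no fold threshold and removal of the 10 most abundant transcripts. It was 20 among transcripts with whole estimates, and, chosen after seeing the data, 73 without XBP1(S) replicates 1 and 6 and ATF6(N) replicate 2, and 76 after thinning to the shallowest library. Leaving out 1 library gave 90 to 126, and 79 of the 114 raised transcripts were called in all 12 of these fits. In AXER-/- hearts the count was 30, but 75 with DESeq2, 13 with no filter, 19 with only the genotypes compared, 2 with whole estimates and 13 to 29 with 1 library left out. The difference between AXER genotypes gave 10 calls, but 208 with DESeq2 (6 of the 10 among them), 0 with whole estimates and 5 to 16 with 1 library left out. Against neither factor, XBP1(S) gave 108 calls, 22 with whole estimates and 97 to 112 with 1 library left out, and ATF6(N) gave 2, 0 with whole estimates and 1 to 2 with 1 library left out. ENSORLT00000029339.1 and ENSORLT00000019560.2 kept their calls in all 23 settings in which they were tested and ENSORLT00000013893.2 in 22 of 23. The cause of these changes was not tested, except that the setting with whole estimates tests fewer transcripts (11068 in place of 18076). The mean depth with XBP1(S) less that with ATF6(N) was 763308 reads and ran from -163841 to 1689134 with 1 library left out, and the share of the 10 most abundant transcripts differed by 2.57 points, 1.79 to 3.13 with 1 left out. No paired analysis was possible because the labels give the libraries no replicate numbers. After thinning to the depth of the shallowest library 14120 transcripts passed the filter.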
